A study of Drosophila melanogaster with 3 samples.

Results

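The genes described here are 8 members of the trithorax group and the Brahma complex of Drosophila melanogaster, taken as a list of names (trx, ash1, ash2, brm, osa, mor, Snr1 and kis) out of 18164 annotated genes, 13945 of them protein-coding. The rule is the list of names and holds no measured value, but the list was drawn up with earlier results of these data known. The data are peak lists from chromatin immunoprecipitation and sequencing (ChIP-seq), which marks the places in the genome where a protein was recovered with DNA. The protein was the product of the gene CG17361, carried as a fusion to enhanced green fluorescent protein (eGFP) by a transgenic fly line and precipitated with an antibody against GFP. All libraries came from whole embryos aged 0 to 24 hours, so cell types and stages are mixed, and chromatin was sonicated to a size range of 200 to 800 bp. The 3 biological replicates form 1 group, with no second genotype or treatment, and whether they came from separate collections is not given in the sources used here.

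Trithorax group proteins keep genes such as the Hox genes active once they have been switched on, and act against the Polycomb group, which keeps them silent. Some modify histones and others move nucleosomes. The Brahma complex is the fly SWI/SNF remodeler, which uses the energy of ATP to slide or evict nucleosomes. It is built on a core that contains Brm, Mor and Snr1, to which Osa is added in the form called BAP.

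A peak is a deposited interval with a summit, the position of strongest enrichment, and its signal is the authors' own score for the peak. The scale of that score is not given in the sources used here, so signals and ranks are read within a list. The main list is the one the authors named conservative, with 7804 peaks at an irreproducible discovery rate (IDR) of 0.01 or less. It was made from the alignments of all 3 replicates, and matching of its recorded input intervals placed replicates 1 and 3 behind its IDR, which the file listings do not state. It is called the list of replicates 1 and 3 in that sense. IDR is computed from the ranks of a peak in a pair of lists, and a low value marks a peak that ranks both high and alike in them. The own lists of replicates 1, 2 and 3 hold 5942, 3797 and 5576 such peaks. The lists come without read counts, the sequencing depth of a replicate is unknown, and a missing peak is one not called rather than one shown to be absent. A promoter peak has its summit within 500 bp of a transcription start site (TSS). Coordinates are those of assembly dm6, counted from 1.

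Calls were counted at promoters and in a wider window, which contains the promoter window and so cannot hold fewer of the genes. In the main list, brm, Snr1 and kis had a promoter peak, 3 of 8 genes (37.5%), against 22.3% of all genes and 26.4% of protein-coding genes. At 8 genes, 1 gene more or less moves the share by 12.5 points, so this count does not set them apart. In the gene body or within 5 kb of it, 7 of 8 genes had a peak, all but ash2, against 52.8% of all genes. The 8 genes are not of average length. Of genes with 0.5 to 2 times the length of each member, between 54.3% (Snr1) and 73.7% (kis) had a peak in the same window. With 12.5 points per gene, the count of 7 does not set the 8 genes apart either.

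The replicates' own lists gave 2, 1 and 2 of the 8 genes with a promoter peak for replicates 1, 2 and 3, or 1.67 ± 0.577 (SD, n = 3). All genes reached 19.3%, 13.4% and 18.3% in the same 3 lists. The brm promoter was called in all 3 lists, and the Snr1 promoter in replicates 1 and 3. For the wider window the counts were 8, 7 and 7 genes, or 7.33 ± 0.577 (SD, n = 3), against 48.2%, 39.1% and 46.7% of all genes. The 6 genes trx, ash1, brm, osa, mor and kis had a peak there in every replicate. The share of all genes under that rule was not computed. Main-list peaks found in all 3 replicates called the same 6 genes, against 31.9% of all genes. Snr1 was without one in replicate 2, and ash2 in replicate 3.

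In all, 24 peaks of the main list had a summit in a member or within 5 kb of it, and overlapping intervals merged them into 19 places. There were 8 at trx, 4 each at osa and kis, 3 at Snr1, 2 each at ash1 and brm, 1 at mor and none at ash2. Only 11 of the 24 summits lay inside a member's own body, in trx, osa, kis and brm, and 3 more were at members' promoters. Of the other 10, 9 were within 500 bp of the start of a neighbouring gene. The median signal of the 24 peaks was 227, against 214 for all peaks of the main list. For 10 of the 24, the summit fell inside a thresholded peak in each of the 3 replicates' own lists.

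**Figure D1:**
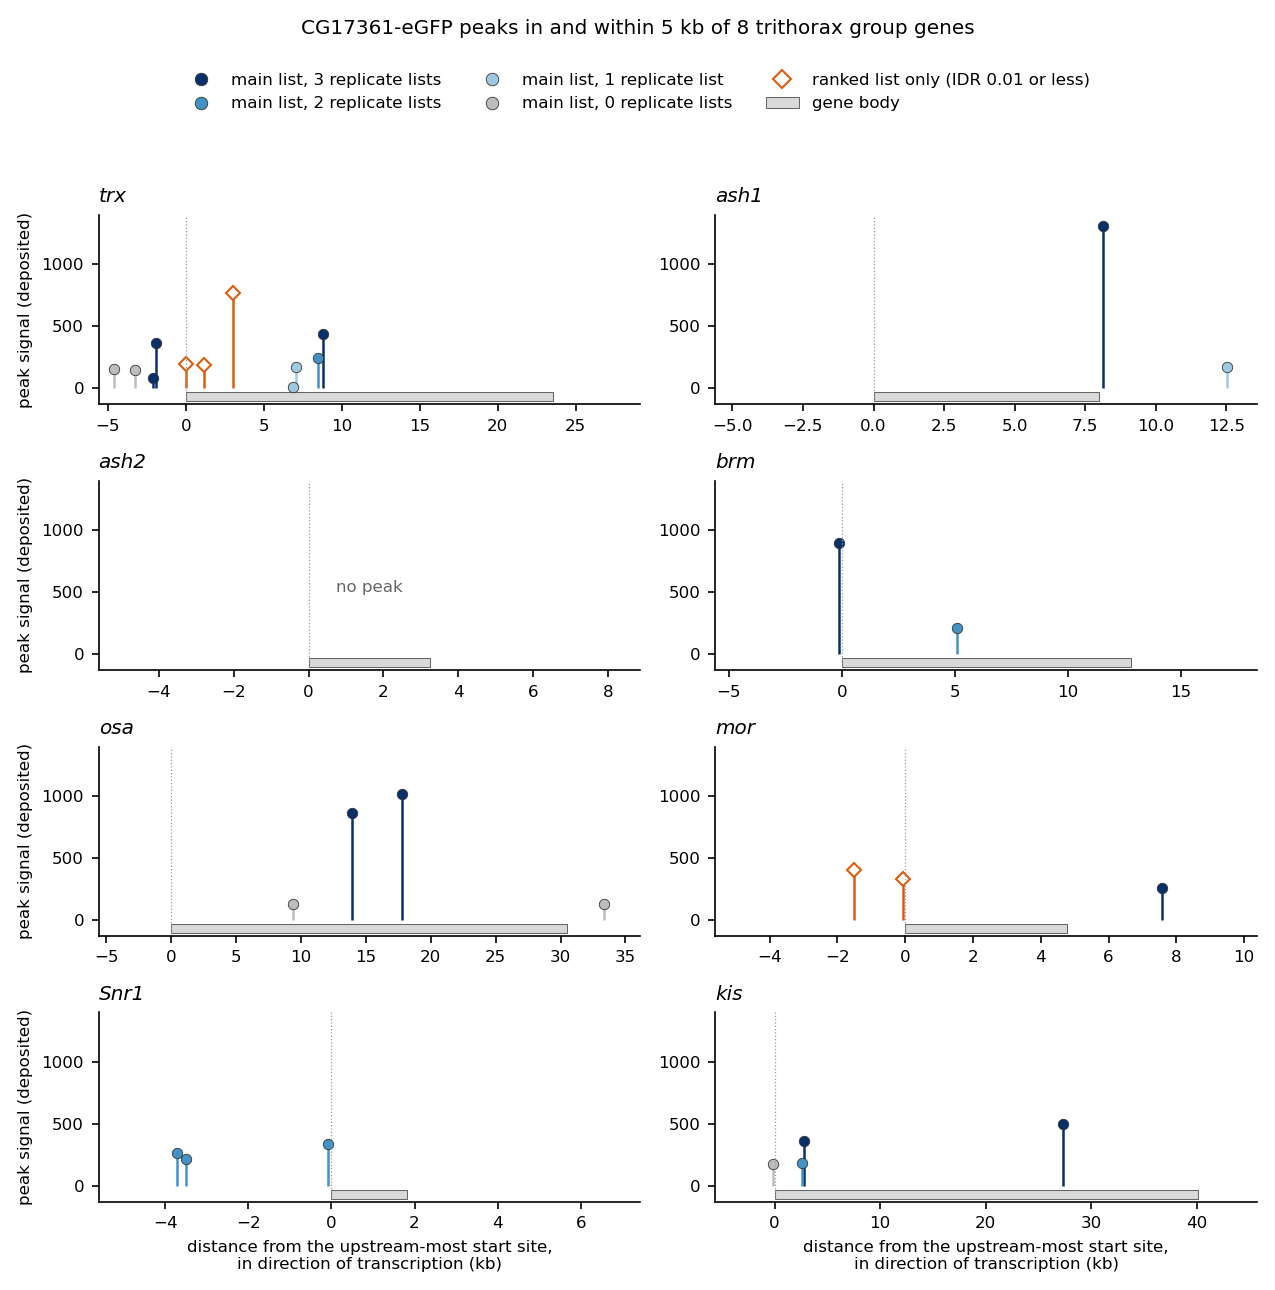
Peaks in and within 5 kb of each gene. The horizontal axis is the distance in kb of each summit from the upstream-most start site, in the direction of transcription, and the vertical axis is the deposited signal. Blue and grey circles are peaks of the main list, darker where more replicates' own lists hold them, and open orange diamonds are peaks that reached an IDR of 0.01 or less in the ranked list only. The 4 highest circles are at ash1, osa (a pair of peaks) and brm, with signals of 865 to 1310.

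The ranked lists, which the authors deposited before thresholding, gave another picture for trx and mor. Each line of a ranked list carries its IDR as a −log10 value, and a value of at least 2 is an IDR of 0.01 or less. By that value alone, 7953 peaks of the list of replicates 1 and 3 passed, and 149 of them are not in the main list. Of these 149, 102 (68.5%) were on chromosome arm 3R, which held 22.3% of all passing peaks. Here 5 of the 8 genes are on 3R, 2 on 3L and 1 on 2L. Among the 149 were 5 peaks near members, 3 at trx and 2 at mor. Per the file listings, the thresholded lists were made with 1 further input that the ranked lists do not name, and whether it removed these peaks was not tested.

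With the ranked list of replicates 1 and 3 at the same IDR, 5 of 8 genes had a promoter peak, trx and mor in addition to brm, Snr1 and kis, against 22.9% of all genes. Of 98 genes that gained a promoter peak in this way, 2 were members. The count in the wider window stayed at 7 of 8, against 53.4% of all genes. In the replicates' own ranked lists at that IDR, 4, 3 and 3 genes had a promoter peak, or 3.33 ± 0.577 (SD, n = 3), against 19.7%, 13.7% and 18.8% of all genes for replicates 1, 2 and 3. The promoters of brm and mor passed in every replicate. Without any limit on IDR, the ranked list of replicates 1 and 3 held a promoter peak for 6 of 8 genes, now also osa, against 41.6% of all genes.

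**Figure D2:**
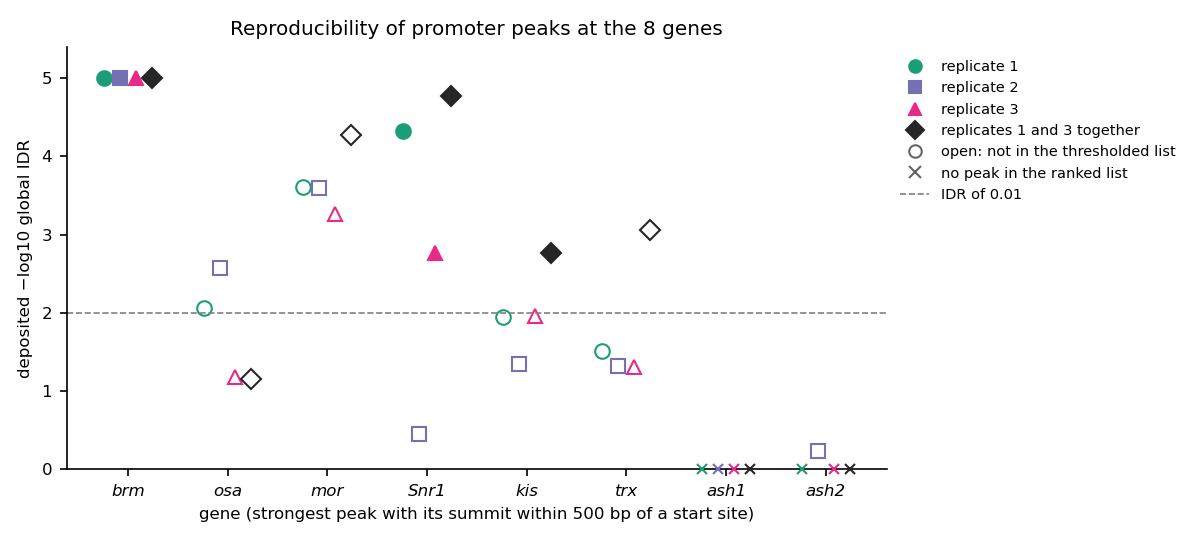
Deposited −log10 global IDR (vertical axis) of the strongest promoter peak of each gene (horizontal axis) in the ranked list of each replicate and of replicates 1 and 3 together. Filled symbols are also in the corresponding thresholded list, open symbols are not, crosses mark no peak, and the dashed line is an IDR of 0.01. All 4 mor symbols lie above the line and all are open, while those of brm are filled and at the highest deposited value, 5.

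In the ranked list of replicates 1 and 3, brm, Snr1 and mor had the promoter peaks of highest signal of the 8 genes. Their signals were 900.2, 337 and 330, and they encode core subunits of the Brahma complex. The order differed in replicate 2, where osa (57.8) was above Snr1 (51.6). The summits at brm, Snr1 and mor are each also within 500 bp of the start of a gene on the opposite strand. The sequences at the summits of the 4 promoters with a peak at an IDR of 0.01 or less outside annotated UTRs are shown first, because they are the places where the tagged protein was recovered nearest to these genes' starts. They are the plus strand of dm6, 50 bases to each side of the summit, and capitals mark matches on either strand to the words searched, which are given below.
brm promoter, chr3L:15982951-15983051: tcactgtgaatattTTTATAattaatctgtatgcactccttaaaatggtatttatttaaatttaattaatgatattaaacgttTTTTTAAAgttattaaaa
Snr1 promoter, chr3R:5470803-5470903: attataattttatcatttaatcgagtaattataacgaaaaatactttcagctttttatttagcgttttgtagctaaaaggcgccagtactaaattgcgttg
mor promoter, chr3R:15972943-15973043: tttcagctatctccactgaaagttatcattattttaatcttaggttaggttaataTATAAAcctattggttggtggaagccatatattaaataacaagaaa
kis promoter, chr2L:250908-251008: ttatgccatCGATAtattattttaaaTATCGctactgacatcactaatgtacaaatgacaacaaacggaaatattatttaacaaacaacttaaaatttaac

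The gene brm encodes the ATPase of the complex and lies at 3L:15970082-15982869 on the minus strand. Its promoter peak, at 3L:15982764-15983253 with the summit 132 bp upstream of the TSS, had a signal of 900.2 and rank 96 of 7804. Among the 3603 promoter peaks of the main list it ranked 68. In the replicates the signals were 288, 311 and 290 for replicates 1, 2 and 3, with ranks of 225, 18 and 202 in their own ranked lists. The 3 replicates' summits lay within 2 bp of each other, and each had the highest deposited −log10 IDR of 5. The interval between brm and the next gene is short, and the same summit is within 500 bp of the start of Arl1, an ARF-like small GTPase gene on the opposite strand. A weaker peak, at 3L:15977470-15978079 with a signal of 208, lay in an intron of brm that also contains the gene CG17029. It was in the thresholded lists of replicates 2 and 3.

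Snr1 encodes the fly SNF5 subunit and is the shortest of the 8 genes, 1.83 kb at 3R:5470926-5472754. Its promoter peak, at 3R:5470672-5470974, had its summit 73 bp upstream, a signal of 337 and rank 1910. The replicates gave signals of 156, 51.6 and 124 for replicates 1, 2 and 3, with −log10 IDR values of 4.32, 0.45 and 2.76. Replicate 2 was the low one and did not pass, although its summit lay within 6 bp of the other two. The same summit is at the start of mRpL44, a mitochondrial ribosomal protein gene on the opposite strand. The other 2 peaks in the Snr1 window, with signals of 266 and 213, lay 3706 and 3496 bp upstream of the TSS. Both were within 500 bp of the start of RpL35A, a cytosolic ribosomal protein gene, and the weaker also of that of POLDIP2. Replicate 1 alone had a further peak beyond the 3′ end of Snr1. It was within 500 bp of the starts of CG45100, Hcs and the histone deacetylase gene HDAC3.

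mor encodes the scaffold subunit Moira and lies at 3R:15968134-15972913 on the minus strand. Its promoter peak was among those that passed IDR but are in none of the thresholded lists. It lay at 3R:15972861-15973289 with the summit 80 bp upstream, a signal of 330 and a −log10 IDR of 4.28. The signals were 117, 114 and 116 for replicates 1, 2 and 3, with ranks of 2545, 1172 and 2627 in their own ranked lists. The −log10 IDR values were 3.61, 3.6 and 3.26, so each replicate passed. This promoter peak is shared with the start of Hel89B, a helicase gene on the opposite strand. A second such peak, at 3R:15974259-15974601 with a signal of 401 and a −log10 IDR of 4.97, lay in an intron of Hel89B, 1505 bp from the mor TSS. Its replicate signals were 153, 97.7 and 139. The single peak of the main list in the mor window had a signal of 261 and lay 2798 bp beyond the 3′ end, in the 5′ UTR of CG32856 and within 500 bp of the start of Rbf2, a retinoblastoma family gene. It was in all 3 thresholded lists.

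The kis gene encodes a chromodomain helicase of the CHD7 family and is the longest of the 8, 40.1 kb at 2L:210735-250823 on the minus strand. Its promoter peak, at 2L:250653-251262 with the summit 135 bp upstream, was weak, with a signal of 176, rank 4951 and a −log10 IDR of 2.77. No replicate passed at this place on its own. The signals were 68.5, 40.2 and 64.1 and the −log10 IDR values 1.95, 1.34 and 1.96 for replicates 1, 2 and 3. The value was 2.12 in the list of replicates 1 and 2 and 1.84 in that of replicates 2 and 3, so the call at kis is lost without replicate 1.

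In the windows of ash1, osa, trx and kis, the peaks of highest signal were not at the promoters of these genes, unlike at brm and Snr1. The same held at mor, where the peak in an intron of Hel89B (401) was above the promoter peak (330). The summit sequences in the windows of ash1, osa, trx and kis are shown for that reason. The sequence labelled by the ash1 3′ end lies beyond that end, wholly outside ash1, at the start of CG14100. Strand, window and capitals are as above, and the osa pair is given from the upstream to the downstream position on the plus strand.
ash1 3′ end, chr3L:19590566-19590666: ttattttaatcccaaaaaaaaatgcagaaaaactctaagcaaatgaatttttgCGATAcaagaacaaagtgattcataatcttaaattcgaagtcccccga
osa intron, chr3R:17700539-17700639: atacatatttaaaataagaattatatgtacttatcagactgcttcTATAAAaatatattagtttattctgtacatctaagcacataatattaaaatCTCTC
osa intron, chr3R:17704380-17704480: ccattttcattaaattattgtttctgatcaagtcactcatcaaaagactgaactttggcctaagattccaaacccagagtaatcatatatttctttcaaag
trx intron, chr3R:14283828-14283928: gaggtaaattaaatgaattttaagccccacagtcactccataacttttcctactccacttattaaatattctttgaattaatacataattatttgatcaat
kis intron, chr2L:223486-223586: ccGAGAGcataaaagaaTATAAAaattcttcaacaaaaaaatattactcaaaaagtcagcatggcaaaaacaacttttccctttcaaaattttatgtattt

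The strongest peak of the whole main list adjoined ash1, which encodes a methyltransferase of histone H3 lysine 36. The gene lies at 3L:19590773-19598755 on the minus strand, and the peak at 3L:19590316-19590903. Its signal was 1310, rank 1 of 7804, and the replicates' signals were 458, 370 and 481 with ranks of 3, 2 and 1 in their own ranked lists. The summit was 157 bp beyond the 3′ end of ash1, and the interval covered the last 131 bases of the gene. It lay 92 bp from the start of CG14100, the next gene on the same strand, so by position it is a promoter peak of CG14100. The ash1 TSS was 8139 bp away, and no list, ranked ones included, had a peak within 500 bp of it. The other peak in the window, with a signal of 169, was at the starts of CG9231 and CG9330, 4540 bp beyond the 3′ end.

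osa encodes the ARID-domain subunit that defines the BAP form of the complex, at 3R:17687818-17718350 on the minus strand. Its strongest peaks were a pair in introns. The first, at 3R:17700280-17700869, had a signal of 1018 and rank 36, and replicate signals of 373, 257 and 406 with ranks of 38, 104 and 14. The second, at 3R:17704154-17704702, had a signal of 865 and rank 125, and replicate signals of 297, 262 and 311. Both had a −log10 IDR of 5, the highest deposited, between replicates 1 and 3 and were in every thresholded list of a replicate, and the replicates' summits fell within 22 and 30 bp of each other. They lay 17761 and 13920 bp downstream of the osa TSS.

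Both osa peaks touch noncoding RNA genes that lie inside osa on the opposite strand. The first summit is within 500 bp of the start of lncRNA:CR46036, and the second is in a noncoding exon of lncRNA:CR46035. The osa promoter itself was not called in any thresholded list. In the ranked lists its −log10 IDR was 2.06, 2.57 and 1.18 in replicates 1, 2 and 3. It was 2.28 in the list of replicates 1 and 2 and 2.66 in the pooled list, which both pass the value, as do replicates 1 and 2 on their own. It was 1.15 and 0.83 in the lists that pair replicate 3 with replicates 1 and 2. The other 2 peaks of the main list at osa had signals of 128 and 126, one in an intron and one beyond the 3′ end at the starts of CG31251 and CG31360. Neither was in a replicate's thresholded list.

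trx, the founding gene of the group, encodes a methyltransferase of histone H3 lysine 4 and lies at 3R:14263358-14286903 on the minus strand. It had the most peaks of the 8 genes, 8 in the main list, and 5.51% of genes of like length had as many. Overlapping intervals merge the 8 into 5 places, and 3 of the 8 were in all 3 thresholded lists, a pair of them through the same replicate peaks. Of these 8, 4 lay in introns and 4 upstream, and 3 of the upstream summits were within 500 bp of a start of the neighbouring gene red. The strongest intron peak of the main list, at 3R:14277865-14278318, had a signal of 436 and rank 1143. Its replicate signals were 152, 74.5 and 208, and it was in all 3 thresholded lists. The strongest upstream peak, at 3R:14288691-14288944, had a signal of 368 and was also in all 3. An overlapping peak with a signal of 80.7 drew on the same replicate peaks, and so did the weakest intron peak, with a signal of 9.95, on those of its neighbour with 173.

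A stronger trx peak was in the ranked lists only. It lay in an intron at 3R:14283588-14284122, 3025 bp downstream of the TSS, with a signal of 772 and rank 214 of the 7953 peaks that passed. The replicates' signals were 231, 263 and 299, and each replicate had a −log10 IDR of 5, the highest deposited. Of the 149 passing peaks that the main list lacks, 9 had a signal at least as high. A second intron peak of this kind, 1129 bp downstream, had a signal of 185. The third was the promoter peak, at 3R:14286595-14287204 with its summit 3 bp downstream of the TSS in the 5′ UTR. Its signal was 198 and its −log10 IDR 3.06 between replicates 1 and 3, but 1.51, 1.32 and 1.31 in replicates 1, 2 and 3, so no replicate passed there on its own. The value was 1.98 in the list of replicates 1 and 2 and 1.71 in that of replicates 2 and 3, so the call at the trx promoter holds in neither.

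Inside kis, the strongest peak lay at 2L:223355-223727, with a signal of 496 and rank 828, in a noncoding exon at the start of lncRNA:CR44222, a noncoding gene within kis on the opposite strand. Its replicate signals were 171, 125 and 202 and all 3 passed. It was 1574 bp upstream of the downstream one of the gene's 2 start sites. A second, at 2L:247819-248117 with a signal of 362, was also in all 3 thresholded lists and lay in the first part of the gene, 2805 bp downstream of the upstream TSS. An overlapping peak had a signal of 184.

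For ash2, a subunit of the complexes that methylate histone H3 lysine 4, the main list had no peak in the gene (3R:24650125-24653376) or within 5 kb. Replicates 1 and 2 had a peak beyond its 3′ end, with signals of 128 and 76.9, within 500 bp of the starts of CG31125 and CG6695. Replicate 3 had none there. At the ash2 promoter the only trace was a peak of replicate 2 with a signal of 9.90 and a −log10 IDR of 0.23. Of genes of like length, 58.4% had a peak in the same window of the main list.

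**Figure D3:**
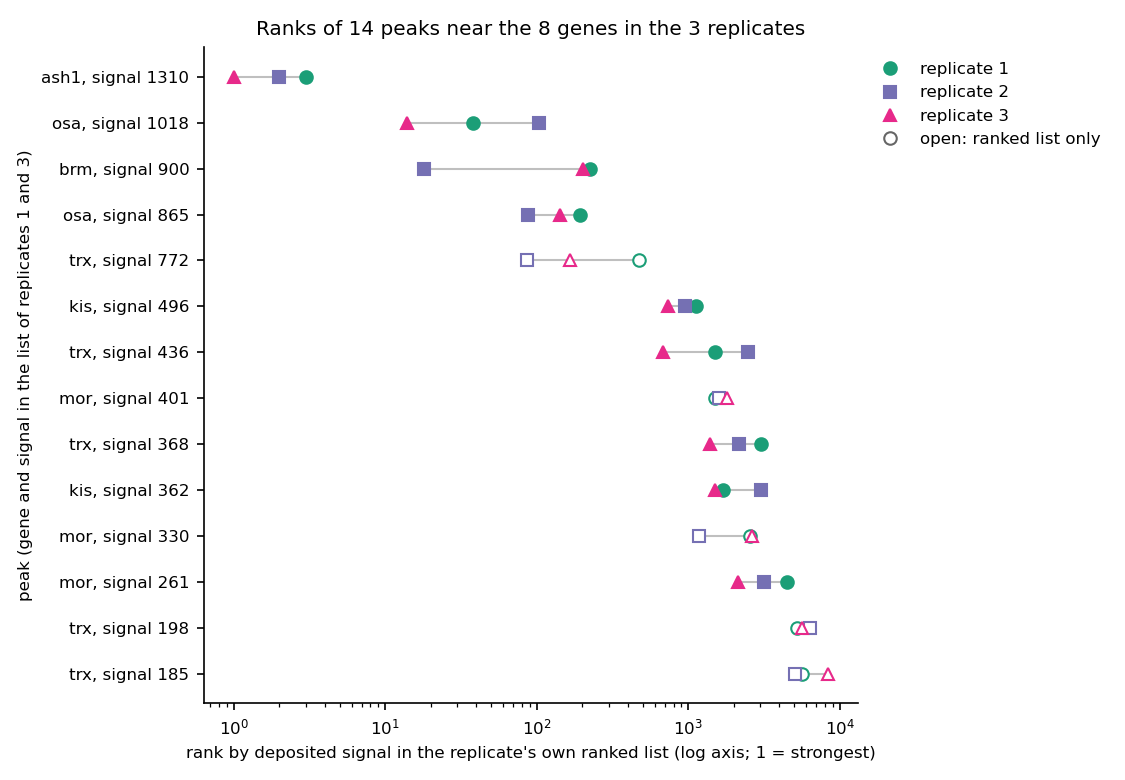
Rank by deposited signal of each peak (rows, with the signal in the list of replicates 1 and 3) in the ranked list of replicates 1, 2 and 3, on a log axis where 1 is the strongest peak. Filled symbols are peaks of the main list found in all 3 replicates, open ones passed IDR in the ranked list only, and peaks that share their replicate peaks with a stronger neighbour are left out. The ranked lists hold 38913, 15366 and 46214 peaks, so a rank is read within its list. The ash1 peak is at ranks 3, 2 and 1, and the open trx peak with a signal of 772 lies among those of brm and osa in replicates 2 and 3 and past them in replicate 1.

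Other genes of the same pathways were taken from a list of 33 (further subunits of the Brahma complex and other remodelers, of histone methyltransferase complexes, and further trithorax group genes). In the main list 15 of the 33 had a promoter peak (45.5%), against 22.3% of all genes and 26.4% of protein-coding genes. The 33 were chosen with earlier results of these data known, so this share is a description and does not set them apart. The replicates' own lists gave 16, 9 and 15, or 13.3 ± 3.79 (SD, n = 3), and 7 genes had one in every replicate. The shares of all genes were 19.3%, 13.4% and 18.3% in the replicates and 10.9% in every replicate. The ranked list at the same IDR also gave 15, so none of these genes was added in the way that trx and mor were.

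The 6 strongest of these promoter peaks were at Act5C, Chd1, Rbbp5, Bap60, Trl and skd. Act5C encodes an actin, and actin is a component of remodeling complexes; its peak had a signal of 753 and replicate signals of 277, 207 and 267. Chd1, a chromodomain remodeler, had 665 and replicate signals of 273, 179 and 211. Rbbp5, a partner of Ash2 in the methyltransferase complexes, had 429, and Bap60, a core Brahma complex subunit, 406. Trl encodes the GAGA factor and had 362, and skd, a Mediator subunit gene of the trithorax group, 337. All 6 were called in every replicate. All but the Trl summit were also within 500 bp of the start of another gene. These were lncRNA:CR45668 (at Act5C), Bem46 (Chd1), eRF1 (Rbbp5), CG12096 (Bap60) and Pdss2 (skd). Of the other 9, Dpy-30L1 had a promoter peak in every replicate, and Brd7-9, Bap170, Iswi, lolal and Utx in 2. Nurf-38 and fs(1)h had one in 1 replicate, and Bap111 in none. Of these 9, only the summits at Brd7-9 and Utx had no other gene start within 500 bp.

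The base composition at the members' summits was like that of the list as a whole. The windows of 50 bp to each side of the 24 summits averaged 30.1% GC, against 43.4% in windows of the same length centred 250 bp to either side. For all 7804 peaks the averages were 32.4% and 42.8%. The summit was lower in GC than its flanks at 19 of the 24 members' peaks (79.2%) and at 78.0% of all peaks. The brm promoter had the lowest value of the 24 peaks, 16.8%, and only 2.67% of the main list was as low or lower. The first osa summit had 20.8%.

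**Figure D4:**
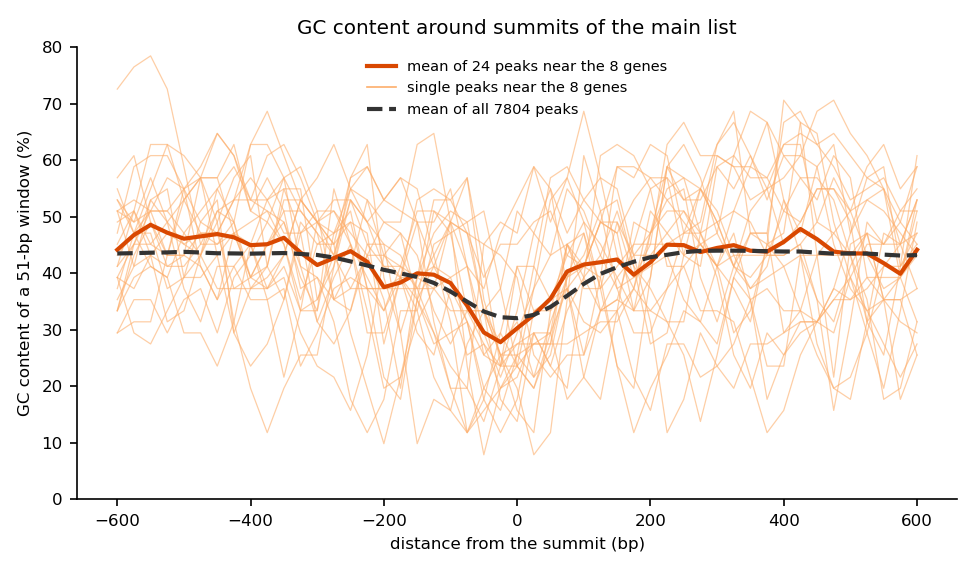
GC content in windows of 51 bp (vertical axis, percent) against the distance from the summit in bp (horizontal axis). Thin orange lines are the 24 single peaks of the main list near the 8 genes, the thick orange line is their mean, and the dashed line is the mean of all 7804 peaks. Both means fall at the summit, where the wider windows of 50 bp to each side average 30.1% and 32.4%.

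Searched words were TATCGATA (the DNA replication-related element), CGATA (a core of BEAF-32 sites, which TATCGATA contains), GGTCACAC (the start of core promoter motif 1), GAGAG (GAGA factor), CAGGTAG (Zelda), TATAAA (the TATA box) and the AT-rich words ATATTTTA and TTTAAAAA, each on both strands within 50 bp of the summit. Of the 24 windows, 7 held TATAAA, against 26.1% of all peaks of the main list. CGATA was in 3, against 13.9%, and GAGAG in 3, against 8.36%. TTTAAAAA was in 2, against 7.27%, and GGTCACAC in 1, against 0.974%. TATCGATA, CAGGTAG and ATATTTTA were in none, against 1.81%, 0.308% and 6.36%. The brm promoter held TATAAA and TTTAAAAA, the kis promoter held CGATA at a pair of places, and the Snr1 promoter held none of the 8 words. These matches describe the letters in the windows and do not show that a factor binds there.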

How the data were processed

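ChIP-seq peak lists of 3 biological replicates were analysed; the reads were not. Per the file listings, the authors mapped to dm6 and made each list from the alignments and a further input file; a possible control experiment is named in the labels, and aligner and caller were not stated. Peak signals are scores from the authors, with no scale stated. The authors' global IDR is deposited in the ranked lists as a −log10 value. The replicates behind each series-level list were identified by matching recorded input intervals, and all 4 such lists give the members' promoter peaks the same signal. An interval on several lines was counted once, with its strongest summit. Annotation was Ensembl release 115, without transposable elements (23998 TSSs), and sequence was the NCBI dm6 assembly. Like-length genes had 0.5 to 2 times a gene's length. Tables were made with Python 3.11.15 and pandas 2.3.3, and the assignment of peaks was tested on simulated summits. No significance test was run, since all samples are 1 group. The members, the 33 further genes (1 listed under a later symbol) and the searched words were chosen with earlier results of these data known. All 8 members were named, and the 6 strongest of the further genes with values. Any gene starting within 500 bp of the promoter summit of a member or of these 6 was also named. Alternatives are given in the closing section.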

Additional observations from a re-analysis of the deposited data

How the results depend on the processing

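The count of members with a promoter peak (3 of 8) was 1 among peaks found in all 3 replicates (brm, against 10.5% of all genes) and 5 in the ranked list at an IDR of 0.01 or less (22.9% of all genes), an alternative chosen after seeing the data. It was 2 or 3 under the other 9 alternatives, among them 2 at an IDR of 0.001 or less (16.1% of all genes). Leaving out a replicate gave 2 to 3 genes, against 13.5% to 22.3% of all genes, kis being lost without replicate 1. The count with a promoter peak in every replicate's own list (1, brm) was 2 in the ranked lists (brm and mor, 11.1% of all genes, against 10.9% in the thresholded lists). That count was 1 to 2 when a replicate was left out, against 11.4% to 15.2% of all genes (Snr1 was added without replicate 2). The count in the gene body or within 5 kb (7) was 4 with no flank, while the share of all genes was 13% there, against 52.8% with it. These 4, trx, brm, osa and kis, are the longest of the 8 genes (12.8 to 40.1 kb). The share of like-length genes was not computed without the flank, so the count of 4 does not set them apart. The 24 peaks were 11 with no flank, 14 at an IDR of 0.001 or less, 10 among peaks found in all 3 replicates, and 12 to 24 when a replicate was left out. The 15 further genes were 12 with a TSS limit of 250 bp, against 16.9% of all genes. They were 7 among peaks found in all 3 replicates (10.5% of all genes), and 8 to 15 when a replicate was left out (13.5% to 22.3% of all genes). The signals of the promoter peaks of brm, Snr1 and kis were the same wherever they were called, since the series-level lists share them. The settings without a replicate change only the pair compared by IDR, since all series-level lists were made from the alignments of all 3 replicates, and the setting without replicate 2 is the main list. No paired analysis was possible because all samples are 1 group. Depth is unknown, so peaks not called are not shown to be absent.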

Other observations

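A peak in an intron of kis was in the thresholded list of every replicate but in none of the 4 series-level ranked lists. Its summits lay at 2L:224825, 2L:224868 and 2L:224871 in replicates 1, 2 and 3, with signals of 140, 63.6 and 138 and ranks of 1752 of 5942, 2915 of 3797 and 1778 of 5576. It was 2863 to 2909 bp upstream of the downstream start site of kis, beside the peak at lncRNA:CR44222. Of 2951 peaks of replicate 1 whose summit was in a thresholded peak of replicates 2 and 3, 50 (1.69%) were in none of those ranked lists. The cause was not tested.

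The 149 peaks that passed IDR in the ranked list of replicates 1 and 3 and are not in the main list fell into 60 unbroken runs along the arms, ordered by position among passing peaks. The members touched in this list were trx and mor, on 3R. At osa, also on 3R, 1 such line was missing from the list of replicates 1 and 2 and from each replicate's own list, and 4 from the pooled list. For the replicates' own lists, 1.89% to 2.22% of the lines at an IDR of 0.01 or less were missing in the same way.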
